A study of Homo sapiens with 2 samples.

Results

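CREB peaks on the DUX4L genes of the D4Z4 macrosatellite were examined in NGP cells, a human line established from neuroblastoma. A macrosatellite is a long DNA unit repeated in tandem. The members were 15 of the 5285 peaks of the deposited list. Of these, 9 were the peaks between 133 and 134 Mb of chromosome 10 (hg38) that overlapped an annotated DUX4L gene, and 6 were the peaks on chromosome 4 that the authors' deposited table pairs with DUX4, its only symbol that starts with DUX4. They were chosen by position and by that pairing, so their place in the arrays follows in part from the choice. The study holds 1 chromatin immunoprecipitation (ChIP) library made with an antibody against CREB and 1 input library, both from NGP cells grown in serum with no other treatment named and harvested near confluence. The peak list and the table came from the ChIP library, and neither library has a replicate, so the spread between cultures is unknown. Input files were not analysed here.

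D4Z4 units lie in tandem near the ends of the long arms of chromosomes 4 and 10, and each carries a copy of the open reading frame of DUX4, a homeobox transcription factor of the early embryo. Most copies are annotated as DUX4L pseudogenes. In most somatic cells the arrays are packed in DNA-methylated, repressed chromatin, and loss of that repression on chromosome 4 leads to facioscapulohumeral muscular dystrophy (FSHD). CREB is a transcription factor that responds to cAMP and calcium and binds the cAMP response element. The units are nearly identical in sequence, so the copy that a short read is assigned to is uncertain, and how reads with several equal alignments were treated is not given in the sources used here.

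The start regions shown are RefSeq starts of genes whose symbols are paired with these peaks: DUX4, DBET and FRG2B. DUX4 is the coding gene of the family. Its RefSeq start lies 109 kb above the start used for the pairing, and no member peak lies in the RefSeq gene. That distance is in hg38 coordinates, and the sequence between was not examined. DBET is a long noncoding RNA gene that abuts the chromosome 4 array. FRG2B is the gene that the authors' deposited table pairs with 5 of the 9 chromosome 10 peaks. The sequences are from RefSeq GRCh38.p14, written 5′ to 3′ from 250 bases before to 50 bases after the gene start. CG dinucleotides are in capitals. DUX4 is chr4:190173524-190173823 on the plus strand, DBET is chr4:190064252-190064551 on the plus strand and FRG2B is chr10:133626746-133627045 on the minus strand.
DUX4: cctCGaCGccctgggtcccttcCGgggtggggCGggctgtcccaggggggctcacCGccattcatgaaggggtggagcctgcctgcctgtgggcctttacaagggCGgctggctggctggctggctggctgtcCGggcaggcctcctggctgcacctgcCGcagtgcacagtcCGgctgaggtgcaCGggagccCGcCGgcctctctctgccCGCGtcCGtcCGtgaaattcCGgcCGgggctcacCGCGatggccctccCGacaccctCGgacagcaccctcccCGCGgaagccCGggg
DBET: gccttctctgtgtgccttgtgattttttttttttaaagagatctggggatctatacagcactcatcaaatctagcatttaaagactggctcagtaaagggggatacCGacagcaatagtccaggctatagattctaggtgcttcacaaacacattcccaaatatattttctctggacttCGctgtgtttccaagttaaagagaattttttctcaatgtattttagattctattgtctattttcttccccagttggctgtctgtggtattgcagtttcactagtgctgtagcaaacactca
FRG2B: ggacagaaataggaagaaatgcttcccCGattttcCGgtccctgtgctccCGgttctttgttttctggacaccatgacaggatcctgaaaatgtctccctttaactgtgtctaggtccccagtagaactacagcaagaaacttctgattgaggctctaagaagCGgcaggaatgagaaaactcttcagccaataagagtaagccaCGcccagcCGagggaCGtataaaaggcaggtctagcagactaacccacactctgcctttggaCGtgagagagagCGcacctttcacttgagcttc

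The DUX4 start region held 25 CG dinucleotides and 73.3% G or C, above the medians of 14 and 58.7% over 35116 RefSeq start regions of the same length. DBET, just outside the array, held 2 CG dinucleotides and 38.7% G or C. The FRG2B region and that of FRG2, its counterpart beside the chromosome 4 array, were identical over the 299 bases that the windows share. None of these 4 regions held the full cAMP response element TGACGTCA or its 5-base core TGACG, searched on both strands (the core lies within the full element). The full element was found in 1.85% and the core in 24.6% of all 35116 regions. No peak overlapped any of these 4 regions. The sequence of the D4Z4 units under the peaks was not used here.

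On chromosome 10 the annotated DUX4L genes form 2 blocks. The proximal block, at positions 133664429 to 133685192, has the partial copy DUX4L28 followed by 6 full copies, DUX4L25 to DUX4L20, whose starts are 3299 to 3310 bp apart. The distal block, at 133740606 to 133761135, has the partial copy DUX4L29 followed by DUX4L10 to DUX4L15, also 3299 to 3310 bp apart. Between the last copy of the proximal block and the first of the distal block lie 55.4 kb in hg38 coordinates, and the sequence of that stretch was not examined. Of these 14 genes, 8 were overlapped by a peak, which follows from the rule and is a description only. Over chromosomes 1 to 22 and X, 2.09% of 59098 RefSeq genes and 0.342% of 15212 pseudogenes, the class of the DUX4L genes, were overlapped. They were DUX4L28, DUX4L25, DUX4L24, DUX4L23 and DUX4L22 in the proximal block and DUX4L10, DUX4L11 and DUX4L13 in the distal block. Full copies without a peak were DUX4L21 and DUX4L20 at the distal end of the proximal block, and DUX4L12, DUX4L14 and DUX4L15 in the distal block.

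**Figure D1:**
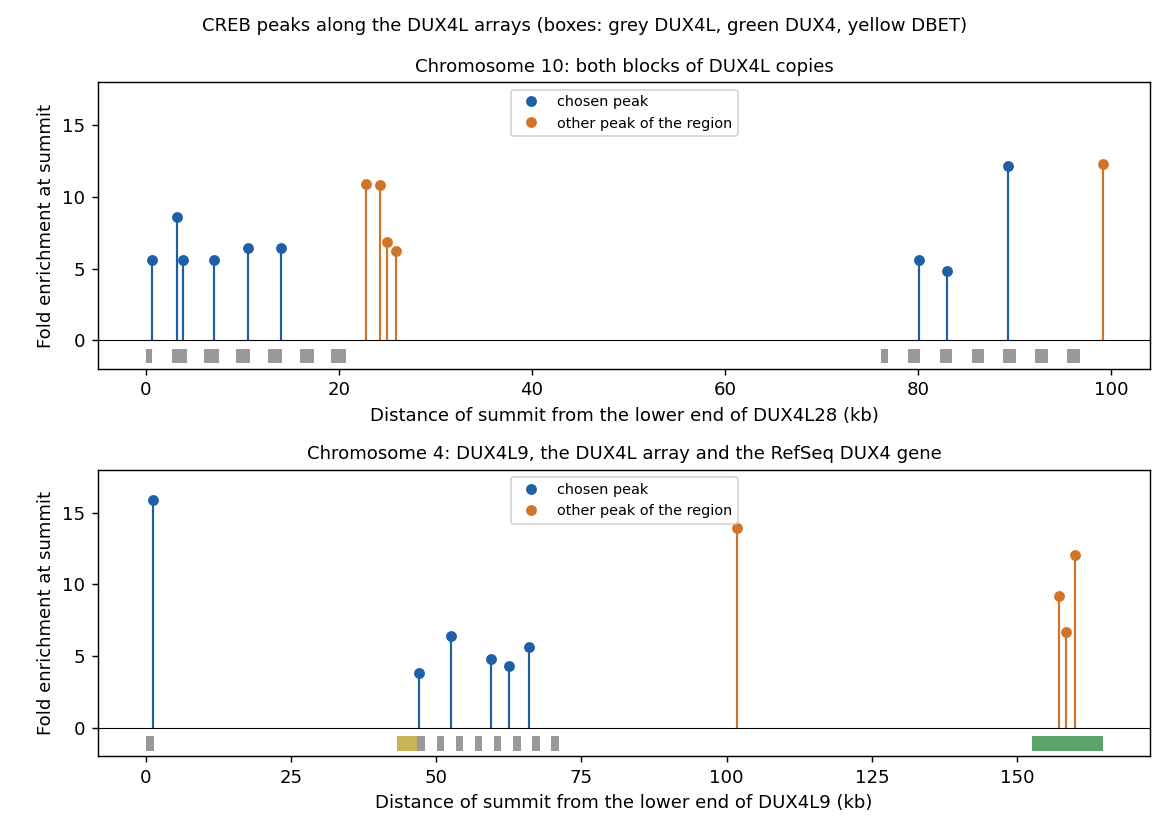
Fold enrichment at the summit of each CREB peak (y axis) against distance in kb along the DUX4L regions of chromosomes 10 and 4 (x axis), from 1 ChIP library. Blue points are the 15 chosen peaks, orange points the other peaks of both regions, and boxes the annotated genes; the chosen peaks within the arrays have folds of 3.80 to 12.2, and DUX4L9, outside the array, has 15.9.

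The 6 peaks of the proximal block had similar folds. Fold is the enrichment at the summit over the background the peak caller expected, and the number of fragments behind it was recovered from fold and p. DUX4L25 carried 2 peaks. The first, at 133667241 to 133667710, had a fold of 8.58 and a −log10 q of 9.59, with 13 fragments (95% Poisson interval 6.92 to 22.2). The second, at 133667879 to 133668411, had a fold of 5.62 and a −log10 q of 4.11, with 6 fragments (2.20 to 13.1). These intervals overlap, and the difference in height between the pair of peaks was not tested.

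Of the other copies of the block, DUX4L24, DUX4L23, DUX4L22 and the partial copy DUX4L28 each carried a lone peak, and DUX4L21 and DUX4L20 had none. DUX4L24 had a fold of 5.61 (−log10 q 4.11, 6 fragments) at 133671351 to 133671529. DUX4L23 had a fold of 6.42 (−log10 q 5.47, 7 fragments) at 133674850 to 133675050, and DUX4L22 the same fold, −log10 q and fragment number at 133677970 to 133678564. The peak at the partial copy DUX4L28, at 133665040 to 133665320, had a fold of 5.62 (−log10 q 4.11, 6 fragments). It met the rule by a narrow margin, with 67 bp of overlap and its summit 26 bp beyond the gene.

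In the distal block the folds were more spread. DUX4L13 had the highest, 12.2 (−log10 q 16.8), with 15 fragments (95% Poisson interval 8.40 to 24.7), at 133753536 to 133753828. It ranked 115 among the 5285 peaks. DUX4L10 had a fold of 5.62 (−log10 q 4.11, 6 fragments) at 133744322 to 133744599, and DUX4L11 a fold of 4.82 (−log10 q 2.87, 5 fragments, interval 1.62 to 11.7) at 133747368 to 133747535. The interval of DUX4L13 overlaps those of DUX4L10 and DUX4L11. All intervals here cover counting error only.

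On chromosome 4 the 6 peaks fell into 5 within the array and 1 outside it. The array holds 8 annotated full copies, DUX4L8 to DUX4L2, at 190067935 to 190092289, with starts 3293 to 3300 bp apart. Only the DUX4L8 peak, at 190068116 to 190068378, overlapped a copy, with a fold of 3.80 (−log10 q 1.48, 4 fragments, interval 1.09 to 10.2), the lowest of the 15. The other 4 lay between copies. The peak between DUX4L7 and DUX4L6 had a fold of 6.42 (7 fragments), that between DUX4L5 and DUX4L4 a fold of 4.82 (5 fragments), that between DUX4L4 and DUX4L1 a fold of 4.29 (6 fragments) and that between DUX4L1 and DUX4L3 a fold of 5.62 (6 fragments). Their −log10 q values were 5.47, 2.87, 1.87 and 4.11.

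The peak outside the array was the strongest of the 15. It lay in DUX4L9, a relative of DUX4 also called DUX4C that stands apart from the array, at 190022066 to 190022596, with a fold of 15.9 and a −log10 q of 33.4. It rested on 35 fragments (95% Poisson interval 24.4 to 48.7) and ranked 55 in the list. Its interval lies above that of every array peak but DUX4L13, which reaches 24.7.

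Position relative to the annotated copies differed between the chromosomes. On chromosome 10, 8 of the 9 summits lay inside an annotated DUX4L gene, 464 to 1428 bp from its lower end, and 6 of these 8 were beyond the middle of the gene. The rule asked for overlap with a gene. Between the first and the last gene of each block it left out no peak, but the blocks end at their last gene. Peaks beginning 1.50 kb past DUX4L20 and 1.61 kb past DUX4L15 were left out, so the share of summits inside genes depends in part on the rule. The genes cover 47.3% of the proximal and 40.7% of the distal block. On chromosome 4, where the genes cover 42.2% of the array, 1 of 5 summits lay inside a gene. The other 4 were 573 to 720 bp below the start of the next copy, within 147 bp of each other when placed on the unit. The difference was not tested, since copies of 1 library are not replicates. Whether the lower ends of the annotated copies of both chromosomes are the same base of the unit was not examined.

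**Figure D2:**
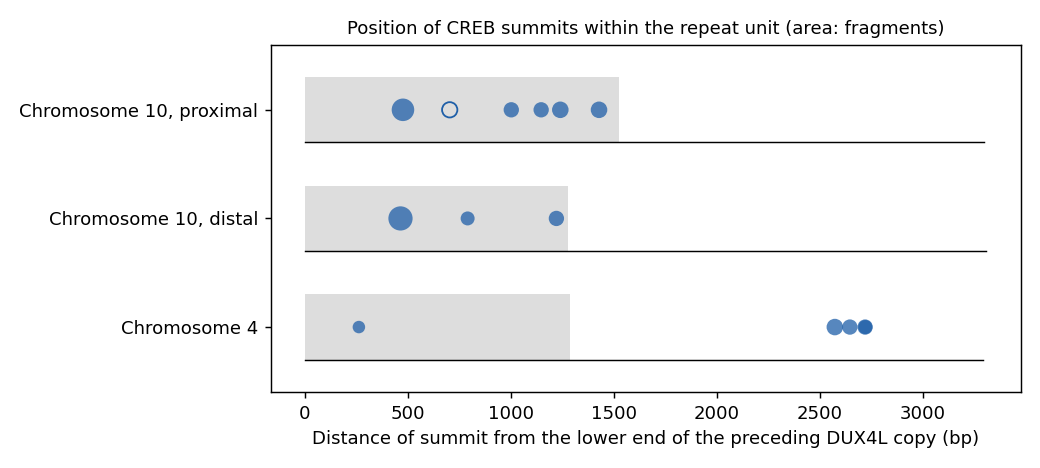
Distance in bp of each summit from the lower end of the preceding DUX4L copy (x axis), for the proximal and distal blocks of chromosome 10 and the array of chromosome 4 (y axis). Grey boxes are the annotated copy, black lines the median spacing of copies and circle area the fragments at the summit. The open circle is the peak past the partial copy DUX4L28, which is shorter than the grey box. On chromosome 4, 4 summits gather at 2573 to 2721 bp, where the chromosome 10 peaks drawn have none. Peaks past the last copy of each block are not drawn. Whether the lower ends of the copies are the same base of the unit was not examined.

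The 2 peaks of highest fold within the chromosome 10 blocks had summits at nearly the same distance from the lower end of their annotated copies. The summit of the stronger DUX4L25 peak lay 476 bp and that of DUX4L13 464 bp above that end, a difference of 12 bp. This match was singled out after the values were seen. The full copies are annotated with 1525 bp in the proximal and 1279 bp in the distal block, and whether their lower ends are the same base of the unit was not examined. The other summits of full copies lay at 1147 bp in DUX4L25, 1002 bp in DUX4L24, 1240 bp in DUX4L23, 1428 bp in DUX4L22, 1221 bp in DUX4L10 and 790 bp in DUX4L11.

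The distance between summits on chromosome 10 is bounded by the rule, since each peak had to overlap a copy, and it is given as a description. Between neighbouring copies that both had a peak, taking the peak with the higher fold in DUX4L25, summits were 3825 bp apart from DUX4L25 to DUX4L24, 3537 bp from DUX4L24 to DUX4L23, 3498 bp from DUX4L23 to DUX4L22 and 2879 bp from DUX4L10 to DUX4L11. The median of these 4 was 3518 bp, against a median spacing of the copies themselves of 3299 bp in the proximal and 3309 bp in the distal block. On chromosome 4, where the rule did not ask for overlap, neighbouring units gave 5608 bp from DUX4L8 to DUX4L7, 3225 bp from DUX4L5 to DUX4L4 and 3368 bp from DUX4L4 to DUX4L1, against a median of 3294 bp for the copies.

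The fragments behind the member peaks were few. Over all 15 the number ranged from 4 to 35 with a median of 6, which is also the median of the whole list, and within the arrays it ranged from 4 to 15. Median fold was 5.62 on chromosome 10 and 5.22 on chromosome 4, against 5.24 over the whole list. A fold of 10 was reached by 2 of the 15, DUX4L9 and DUX4L13, and by 4.09% of all peaks. A −log10 q of 5 was reached by 6 of the 15 (40.0%) and by 30.3% of all peaks. Peaks were 168 to 595 bp wide, with a median of 281 bp against 236 bp.

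The expected background at the members was mostly the lowest that occurs. At 9 of the 15 peaks it was 0.246 fragments, the commonest value of the list and also its minimum, which held for 31.4% of all peaks. The other 6 had backgrounds up to 1.26 fragments, the highest at DUX4L9. With a fixed background the fold takes only a few values: 4 members, those at DUX4L28, at DUX4L25, at DUX4L10 and between DUX4L1 and DUX4L3, shared the fold of 5.62 from 6 fragments, and 352 peaks of the list have that same fold. Equal folds in these copies thus mean equal small fragment counts.

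**Figure D3:**
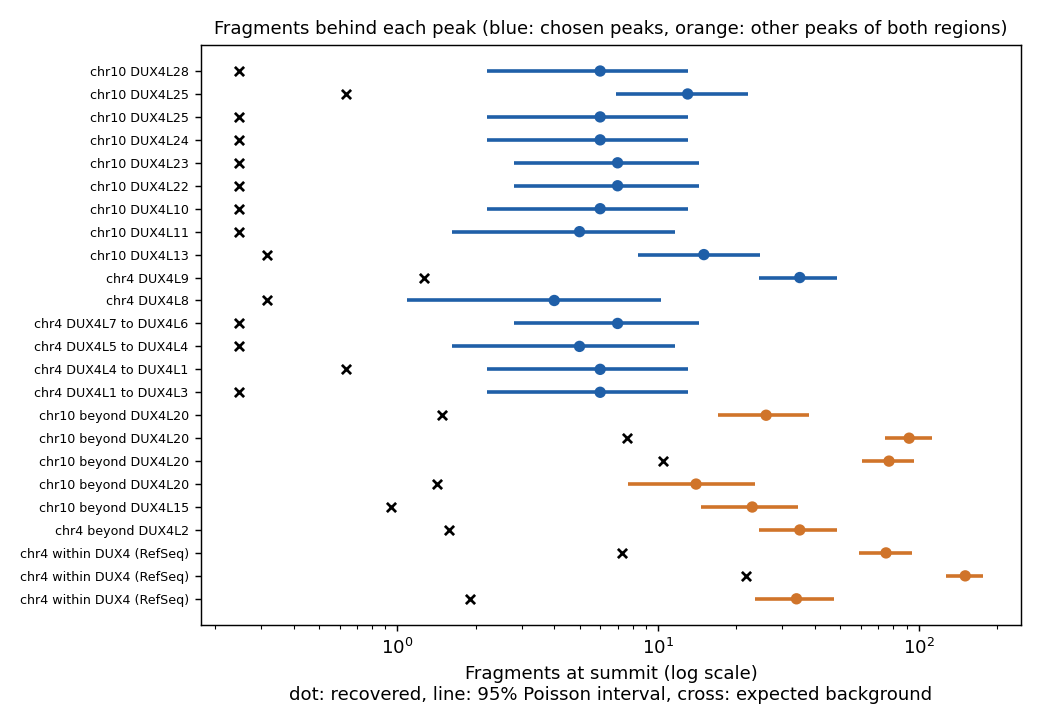
Fragments at the summit (x axis, log scale) for the 15 chosen peaks in blue and the 9 other peaks of both regions in orange, named on the y axis by the gene or copies at the peak. Dots are recovered fragments, lines their 95% Poisson intervals (counting error only) and crosses the expected background; array peaks have 4 to 15 fragments and the peaks beyond the last copies and in the RefSeq DUX4 gene 14 to 151.

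Most peaks just past the ends of the chromosome 10 blocks had more fragments than any peak within them. The exception, with 14 fragments, was below the 15 at DUX4L13. Beyond DUX4L20, the last copy of the proximal block, 4 peaks at 133686695 to 133690432 had folds of 10.9, 10.8, 6.82 and 6.21 and fragments of 26, 92, 77 and 14. They began 1.50 kb past DUX4L20 and were the nearest peaks that the overlap rule left out. Beyond DUX4L15, the last copy of the distal block, a peak at 133762746 to 133763839 had a fold of 12.3 and 23 fragments (95% Poisson interval 14.6 to 34.5). The first peak past each block ended 3.98 kb above the lower end of its last copy, with summits at 3.61 and 3.67 kb. No annotated gene lay under these 5 peaks. From the last of the 4 peaks past the proximal block to the first of the distal block, 53.9 kb held no peak. The genome sequence of this stretch was not used here, so whether reads can align there was not examined.

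The annotated DUX4 gene of chromosome 4, at 190173774 to 190185911, also held peaks well above its start. There were 3, beginning 3.59 kb, 5.51 kb and 7.23 kb above its start, with folds of 9.19, 6.66 and 12.1, fragments of 75, 151 and 34 and −log10 q values of 43.6, 67.3 and 26.2. Over these 8 peaks the background was 0.949 to 21.8 fragments, and at the highest it was 88.8 times the commonest value. The peaks with 75 to 151 fragments had backgrounds of 7.27 to 21.8. Those with 14 to 34 fragments had backgrounds of 0.949 to 1.90. How many genomic copies stand behind these backgrounds was not tested. Past DUX4L2, the last copy of the chromosome 4 array, the next peak lay 30.4 kb away at 190122678 to 190123063, with a fold of 13.9 and 35 fragments.

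**Figure D4:**
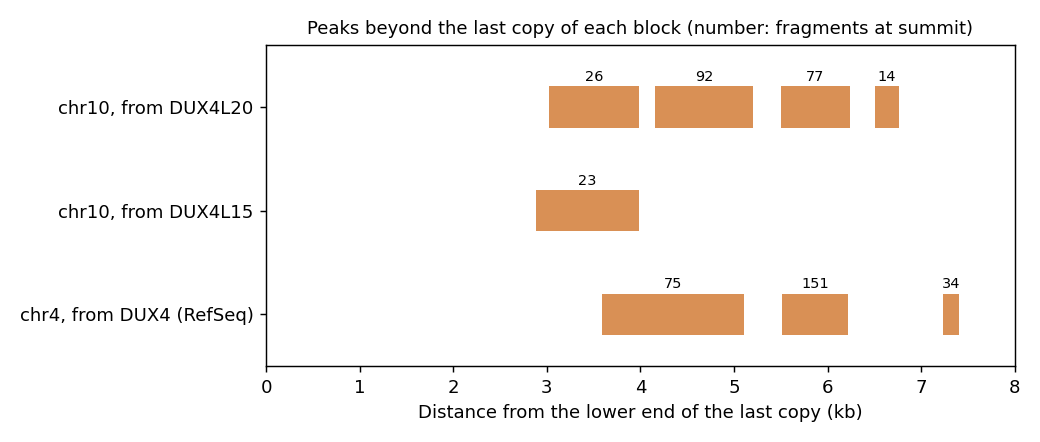
Peaks beyond the last DUX4L copy of both chromosome 10 blocks and within the RefSeq DUX4 gene of chromosome 4 (y axis), placed by distance in kb from the lower end of that copy or gene (x axis). Bars span the deposited peaks and numbers are fragments at the summit; all 8 lie between 2.89 and 7.41 kb.

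The authors' deposited table and RefSeq place DUX4 differently. The table gives its transcription start site (TSS) at 190065229, inside the DBET gene, 109 kb below the RefSeq start at 190173774. The 6 peaks paired with DUX4 in the authors' deposited table are therefore those around the array, 42.8 kb upstream (DUX4L9) and 2.97 to 21.9 kb downstream. The next peak on the far side, 57.7 kb downstream, fell outside the 50 kb window. The 3 peaks within the RefSeq DUX4 gene are paired with no gene in that table. The same 6 peaks are also paired with DBET, an RNA described as an activator of the array in FSHD, and 3 of them with FRG2. On chromosome 10 the table pairs 5 of the 9 members with FRG2B, 38.3 to 48.2 kb upstream of its TSS, and the other 4 with nothing.

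The FRG2 genes, named for the FSHD region, showed a related layout at 2 of 3 places. The DUX4L9 peak lay 4.79 kb downstream of the FRG2 TSS, and a peak in DUX4L26 on chromosome 3 lay 5.10 kb downstream of the FRG2C TSS. The DUX4L26 peak had a fold of 11.3 and 39 fragments (95% Poisson interval 27.7 to 53.3) over a background of 2.53. Placed from the gene end that faces the FRG2 gene, the summits were 199 bp into DUX4L9 and 358 bp into DUX4L26. At FRG2B on chromosome 10, whose start region equals that of FRG2, the nearest peak downstream was 738 kb away. All 14 annotated DUX4L genes of chromosome 10 lie upstream of FRG2B, so this layout could not occur there. In all, 13 of 47 DUX4 and DUX4L genes outside chromosome Y held a peak, with 2 of 23 on chromosomes other than 4 and 10. These counts stand beside the 0.342% of all pseudogenes given above, and since near-identical copies can share reads they are not independent. The second of those, DUX4L44 on chromosome 22, had a fold of 8.83 with 10 fragments over the commonest background.

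Genes that keep D4Z4 repressed and genes that DUX4 switches on were then examined with the authors' deposited table, in which 8.47% of 19974 protein-coding genes are paired with a peak within 50 kb and 1.33% have a summit within 1 kb of the TSS. Of 47 D4Z4 chromatin regulators, 4 were paired (8.51%), a share near that of all genes, and 1 within 1 kb. That was MTA2, a subunit of the nucleosome remodelling and deacetylase complex, 52 bp upstream of the TSS with a fold of 5.62 and 6 fragments. LRIF1, a partner of the SMCHD1 silencing protein, had a peak 3.15 kb upstream (fold 4.56). SUV39H2, a histone H3 lysine methyltransferase, had a peak 40.8 kb upstream (fold 5.62), and NCL, which encodes nucleolin, had a peak 29.9 kb downstream (fold 4.26). SMCHD1 and DNMT3B were paired with none. Of 50 DUX4 target genes, 1 was paired, FRG2, through the DUX4L9 and array peaks. ZSCAN4 and LEUTX, embryonic genes that DUX4 activates, were not paired. Of 26 matched genes listed as next to the arrays or related to them by name, 7 were paired. These were DUX4, DBET, FRG2, FRG2B, FRG2C, FRG1BP (24.8 kb, fold 5.32) and TUBB8 (39.1 kb, fold 50.3). FRG2C lies on chromosome 3 and FRG1BP on chromosome 20. The TUBB8 TSS is at 49296 of chromosome 10, at the other end of that chromosome from the arrays. The list was chosen for closeness or related names, so its count says nothing about the arrays.

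Peaks in other tandem gene arrays had similar values. The USP17L array of chromosome 4, a family of deubiquitinase genes, held 45 peaks with folds of 3.80 to 8.36 (median 5.62) and 4 to 10 fragments. DANT1, a noncoding RNA gene at the DXZ4 macrosatellite of chromosome X, held 13 peaks with folds of 3.80 to 9.12 (median 5.62) and 4 to 11 fragments. The commonest background was found at 25 of the 45 and at 10 of the 13, beside 9 of the 15 D4Z4 members. DUX4L13 (fold 12.2, 15 fragments) lay above the highest peak of either array, while its interval of 8.40 to 24.7 fragments takes in their maxima. Of 46 genes listed from tandem families, 23 were paired with a peak within 50 kb in the authors' deposited table (50%, beside 8.47% of protein-coding genes), of which 19 were USP17L genes. Those 19 have only 9 different TSS in the table, and 8 of the 19 share a TSS and its 27 peaks, so they are not separate observations. The others were DANT1, LPA, TTC34 and REXO1L2P.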

How the data were processed

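Peaks came from 1 CREB ChIP library of NGP cells. The submitters' processing notes name Bowtie2, MACS2 and build hg38; their settings, and how multiply aligned reads were handled, are not stated there. The peak list deposited by the authors gives for each peak a score, a fold (ratio) over background, and −log10 of its p-value and q-value, and the deposited table repeats the score. These are the authors' values. Total read depth was not used here.

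Gene positions were RefSeq GRCh38.p14, the same build; they carry no strand for DUX4L genes, so distances run from the lower coordinate. Overlap meant 1 bp or more. Peak 1-based positions were set beside gene positions with Python 3.11.15 and pandas 2.3.3. Fragments were recovered as the whole number that gives the deposited p as a Poisson tail, with fold as (fragments + 1) / (background + 1). All 5285 peaks gave such a number, with −log10 p matched to 0.001, or to a relative 1e-05 where it exceeded 100, and the recovery was tested on simulated data. No test was made between groups, since each has 1 library.

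The members and lists were chosen with earlier results of these data known. The text names every member, every listed gene paired with a peak (USP17L genes as a count), and the 3 strongest other peaks of the chromosome 10 region; further peaks, and unpaired genes named beside them, were added after their values were seen. Alternatives were a stricter q, other overlap rules, peak middles and shorter distances. Chromosome Y was not analysed here.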

Additional observations from a re-analysis of the deposited data

How the results depend on the processing

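With only peaks of −log10 q of 5 or more, 4 of the 9 chromosome 10 peaks remained, those at DUX4L25 (the stronger), DUX4L23, DUX4L22 and DUX4L13. Within 1 kb of its TSS in the authors' deposited table, 0 pairs name DUX4, and the count of DUX4 symbols thus went from 1 to 0. Requiring the summit or 50% of the peak inside the gene left 8 peaks, without that at DUX4L28. The median fold on chromosome 10, 5.62, rose to between 6.02 and 7.50 under the 4 alternatives tried. The median summit spacing, 3518 bp, was 3414 bp with peak middles. It was 3326 bp with the weaker DUX4L25 peak, an alternative chosen after seeing the data. At a −log10 q of 5 or more a lone spacing was left, 3498 bp from DUX4L23 to DUX4L22, which says nothing about stability. No paired analysis was possible because each group has 1 library. With 4 to 15 fragments at array peaks, copies with and without a peak may differ by few fragments, and a copy without a peak is not shown to lack binding.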

Other observations

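Peaks on alternative sequences of chromosome 4 numbered 4. The strongest had a fold of 16.9, 32 fragments and a background of 0.949, beside 15.9, 35 and 1.26 at DUX4L9. It was 543 bp wide with its summit 408 bp from the start, beside 531 and 400 bp at DUX4L9. A further peak on the same alternative sequence had a fold of 6.42 with 7 fragments, the values found at DUX4L23, at DUX4L22 and between DUX4L7 and DUX4L6. Which genes these sequences carry was not examined.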
